A study of Mus musculus with 6 samples.

Results

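The genes of transforming growth factor beta (TGF-beta) supply and reception were compared between 4T1 and 4TO7, mouse mammary carcinoma cell lines. The 10 members are the 3 ligands Tgfb1, Tgfb2 and Tgfb3, the 3 receptors Tgfbr1, Tgfbr2 and Tgfbr3, and the 4 latency proteins Ltbp1 to Ltbp4, taken by gene symbol from a table of 47729 gene rows. These symbols match 11 rows, because Ltbp4 is listed under a second identifier (ENSMUSG00000108715) with 0 reads in every library. That row was set aside. The name latency proteins is used for all 4 Ltbp genes as a family, though Ltbp2 does not bind latent TGF-beta. Both lines come from a spontaneous tumour of the BALB/c strain, were grown in serum-supplemented DMEM without treatment, and gave 3 libraries of total RNA each. As background, 4T1 cells metastasise from the mammary gland, whereas 4TO7 cells spread but rarely grow out at distant sites. Nothing but the line distinguishes the groups in the labels. Each line is a single cultured population, so what belongs to the line and what belongs to its culture history cannot be told apart.

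As background, TGF-beta is secreted in a latent form, in which the mature ligand stays wrapped in its own propeptide. Most cells release it bound to a latent TGF-beta binding protein (LTBP), which ties the complex to the extracellular matrix until integrins, proteases or thrombospondin set the ligand free. Free ligand joins the type II receptor (Tgfbr2), which phosphorylates the type I receptor (Tgfbr1), which in turn phosphorylates SMAD2 and SMAD3. In mammary epithelium the pathway restrains proliferation, and in carcinoma cells it is best known for driving invasion and mesenchymal change.

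Depth was 33605566 to 39072639 reads in genes per library, and log2 values correlated across genes at 0.978 to 0.993 within a line against 0.809 to 0.848 between lines. Among the defining markers of other cell types, the 4 endothelial genes summed to at most 18.2 normalised counts in any library. The 6 leukocyte genes summed to at most 42.5, with Cd3e at 0 reads in both lines. Most of the leukocyte sum in 4T1 was Csf1r, which averaged 28.0 in 4T1 and 3.03 in 4TO7. The 7 fibroblast genes summed to 589.9 to 1372 in 4T1 and to 1721 to 7522 in 4TO7. Most of that was Pdgfra (897 and 5286 on average). Pdgfrb averaged 6.52 in 4T1 and 25.1 in 4TO7, whereas Lum and Thy1 had 0 reads in both lines. All 5 epithelial markers were higher in 4T1, but not to a like degree. Krt8 averaged 47522 normalised counts in 4T1 and 21578 in 4TO7, and Krt18 62754 and 13535, so both keratins were abundant in either line. In 4TO7 Cdh1 averaged 169.7, Epcam 23.7 and Krt19 1.29. In these bulk samples fewer cells of a type and less RNA per cell cannot be told apart. Values below are normalised read counts (gene reads divided by 1 size factor per library), and mean ± SD has n = 3 per line. Fold changes on the log2 scale are 4T1 minus 4TO7 of log2(value + 1) with their standard error (SE), and adjusted p-values are from limma over 14276 genes, with calls below 0.05.

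All 10 members passed the filter on low values. In 4T1 the ligand Tgfb2, the type II receptor Tgfbr2 and Ltbp2 of the LTBP family were higher, by 7.97-fold, 3.23-fold and 20.1-fold. In 4TO7 the latency protein Ltbp4 was higher, by 1.86-fold. The other 6 members were not called. Over all genes tested, 49% were called in either direction, 25.1% higher in 4T1 and 23.9% higher in 4TO7. The 3 and 1 of 10 members thus lie close to that background or below it. The 3 values of one line lay wholly outside those of the other in 5 members (Tgfb1, Tgfb2, Tgfbr2, Ltbp2 and Ltbp4), where 58.4% of all genes tested show this. The median absolute log2 fold change was 0.82 over the members and 0.57 over all genes tested.

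**Figure D1:**
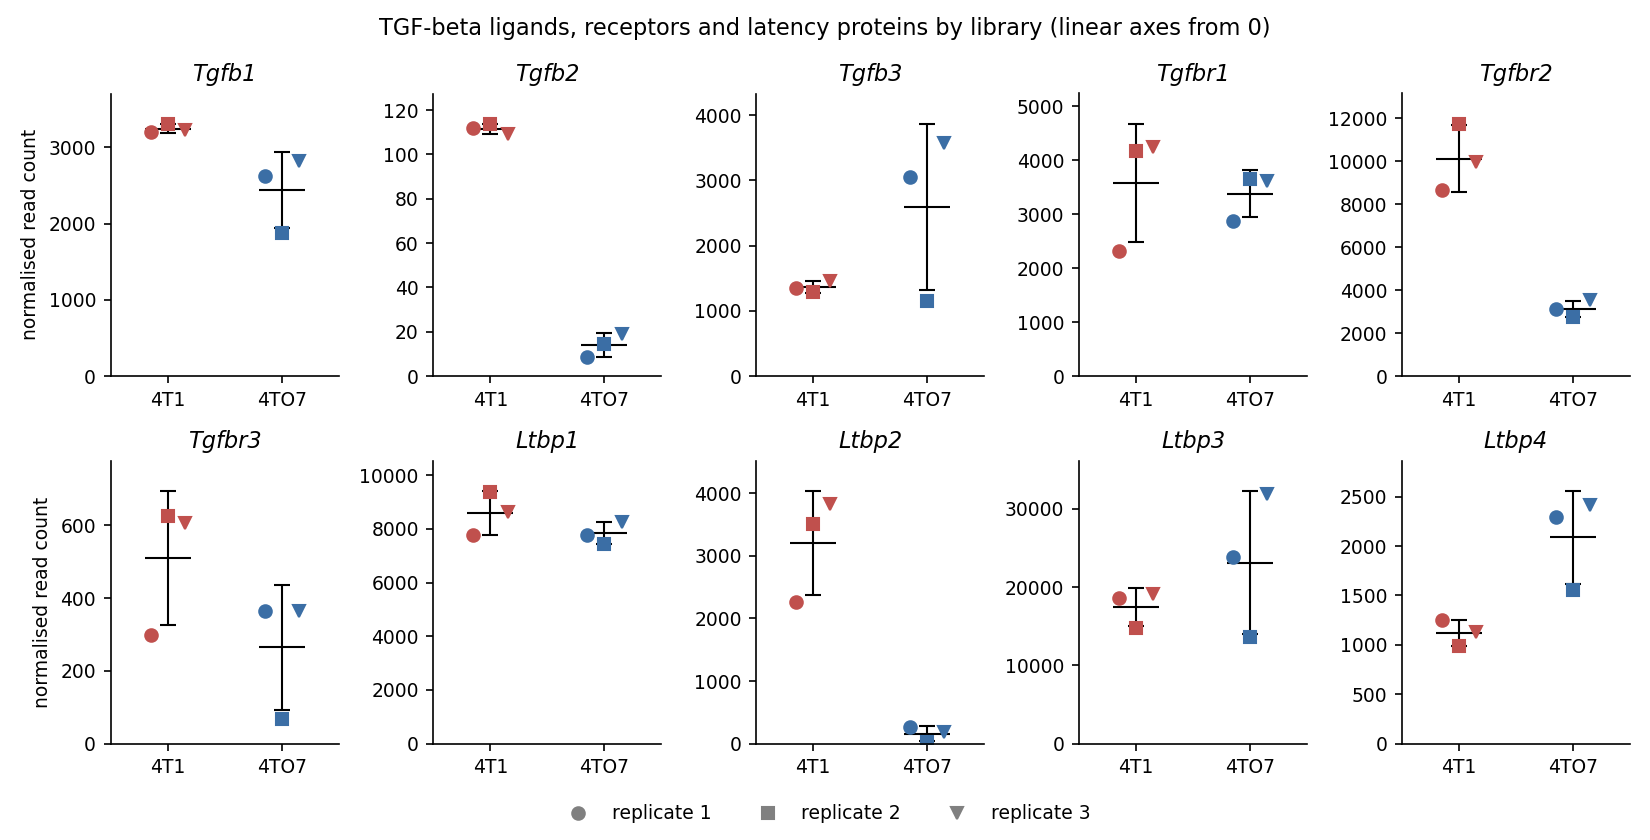
Normalised read count of each member in each library on linear axes from 0, with circles, squares and triangles for replicates 1, 2 and 3, and a bar and whiskers for mean ± SD (n = 3). Tgfb2, Tgfbr2 and Ltbp2 stand higher in every 4T1 library than in any 4TO7 library, Ltbp4 does the opposite, and 4TO7 replicate 2 (blue square) is the lowest 4TO7 library in 8 of 10 panels.

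The stretches of genome before the annotated starts of the called members are shown because these are the genes whose transcript levels separated the lines. They are RefSeq promoter windows on GRCm38.p6, 5′ to 3′ on the gene's strand, ending at the start site or before the first annotated coding-gene exon. Capitals mark matches, on either strand, to the SMAD element CAGAC, the E-box CACGTG or the GC box GGGCGG; the CRE letters TGACGTCA and the AP-1 letters TGANTCA were also searched and are in none of the 4 windows.
Tgfb2 (chr1:186705990-186706239, minus strand): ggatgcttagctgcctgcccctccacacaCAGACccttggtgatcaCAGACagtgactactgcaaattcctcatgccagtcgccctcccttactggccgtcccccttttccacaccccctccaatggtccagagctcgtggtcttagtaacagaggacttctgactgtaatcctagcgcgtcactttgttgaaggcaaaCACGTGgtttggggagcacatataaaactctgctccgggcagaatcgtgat
Tgfbr2 (chr9:116175364-116175613, minus strand): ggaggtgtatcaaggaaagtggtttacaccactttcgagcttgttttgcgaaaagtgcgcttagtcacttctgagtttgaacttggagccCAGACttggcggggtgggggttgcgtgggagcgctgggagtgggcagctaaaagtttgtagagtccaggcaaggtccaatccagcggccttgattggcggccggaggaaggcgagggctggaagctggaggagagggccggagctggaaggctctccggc
Ltbp2 (chr12:84876533-84876741, minus strand): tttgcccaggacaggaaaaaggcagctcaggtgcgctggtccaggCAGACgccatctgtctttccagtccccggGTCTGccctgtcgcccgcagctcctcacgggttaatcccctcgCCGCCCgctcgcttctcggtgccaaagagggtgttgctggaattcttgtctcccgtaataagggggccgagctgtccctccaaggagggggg
Ltbp4 (chr7:27337693-27337862, minus strand): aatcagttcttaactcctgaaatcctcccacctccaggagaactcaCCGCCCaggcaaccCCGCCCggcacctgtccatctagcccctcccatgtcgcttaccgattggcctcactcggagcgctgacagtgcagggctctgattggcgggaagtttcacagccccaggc
The SMAD element lies in all 3 windows of the members higher in 4T1 and not in that of Ltbp4. It is also in a window of Ltbp1, Ltbp3 and Tgfbr1, which were not called, and in 42.2% of the 32851 windows of 250 bases in the table. The E-box stands 51 bases before the Tgfb2 start, and 6.02% of windows hold one; GC boxes are in 32.7%. These are matches of letters, not bound sites. Of the 10 members, 8 had a window in the table, and Ltbp4 has 2 further starts whose windows are not shown.

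Among the ligands, Tgfb2 separated the lines most clearly. Tgfb2 encodes a ligand that needs the co-receptor Tgfbr3 for tight binding to Tgfbr2 (ENSMUSG00000039239, GRCm38 chromosome 1, 186622792 to 186705989). In order of replicate number, as for every gene below, 4T1 had 112, 114 and 109 normalised counts of it, while 4TO7 had 8.42, 14.7 and 18.9. The lines do not overlap, the 4T1 libraries lie within a few counts of each other, and the 4TO7 values rest on 42 reads in all. The log2 fold change was 2.97 ± 0.33 (SE; adjusted p = 0.000151). It was the least abundant member per length in both lines, at 21.8 ± 0.446 and 2.74 ± 1.03 normalised reads per kilobase of its longest coding transcript.

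Tgfb1, the ligand most widely produced by carcinoma cells, was at a similar order of level in both lines (chromosome 7, 25687002 to 25705077). Its values were 3207, 3310.0 and 3226 in 4T1 and 2628, 1873 and 2817 in 4TO7. Every 4T1 library was above every 4TO7 library, but the spread in 4TO7 was wide and the gene did not pass, with a log2 fold change of 0.43 (95% interval 0.04 to 0.83; adjusted p = 0.0653). The interval is for this gene alone, without adjustment over genes. Without 4TO7 replicate 2 the log2 fold change of Tgfb1 fell to 0.26, a 1.19-fold higher mean in 4T1. It did not pass there either (limma adjusted p = 0.116). Tgfb3, a ligand known for palate fusion and for mammary involution after weaning, pointed to 4TO7 (chromosome 12, 86056745 to 86079041). It had 1351, 1287 and 1458 in 4T1 and 3058, 1159 and 3573 in 4TO7. In 4TO7 replicates 1 and 3 Tgfb3 was above all 4T1 libraries, and in replicate 2 it was below them. With all 6 libraries the log2 fold change was -0.77 (95% interval -1.63 to 0.09; adjusted p = 0.12). Without 4TO7 replicate 2 it was -1.28, a 2.43-fold higher mean in 4TO7, and passed (adjusted p = 0.000111). Over all 6 libraries Tgfb3 also passed in edgeR with TMM scaling (adjusted p = 0.0419) and in DESeq2 (adjusted p = 0.0181), and in the authors' deposited table its adjusted p was 0.0254. Those tools called 48.8% (edgeR) and 51.2% (DESeq2) of all genes tested, 25.5% and 25.7% of them higher in 4TO7. With the replicate number as a block, limma called 54.3% of all genes, 26.3% higher in 4TO7.

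As a share of the ligand pool, not as a level, Tgfb1 was higher in every 4T1 library and Tgfb3 in every 4TO7 library. Per kilobase of transcript, Tgfb1 was 77.8%, 79.1% and 76.6% of the 3 ligands in the 4T1 libraries and 57.2%, 71.4% and 54.99% in the 4TO7 libraries. Tgfb3 made up 21.0% ± 1.25 in 4T1 and 38.7% ± 8.96 in 4TO7. Which of these 2 ligands was the larger in 4TO7 depends on the length correction. Without it, Tgfb3 stood above Tgfb1 in 4TO7 replicates 1 and 3 (3058 against 2628, and 3573 against 2817 normalised counts). In 4TO7 replicate 2 it stood below (1159 against 1873). Tgfb2 made up 1.14% ± 0.0303 of the pool in 4T1 and 0.158% ± 0.0799 in 4TO7. None of these 3 shares overlapped between the lines; each gave p = 0.1 in a two-sided exact permutation test, the smallest that 3 against 3 libraries allow, and 0.143 adjusted over the 10 shares tested. The summed ligand level per kilobase was 1919 ± 20.5 in 4T1 and 1892 ± 606 in 4TO7 (exact permutation p = 1), with 4TO7 replicate 2 at 1207 and the other 4TO7 libraries at 2114 and 2355.

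**Figure D2:**
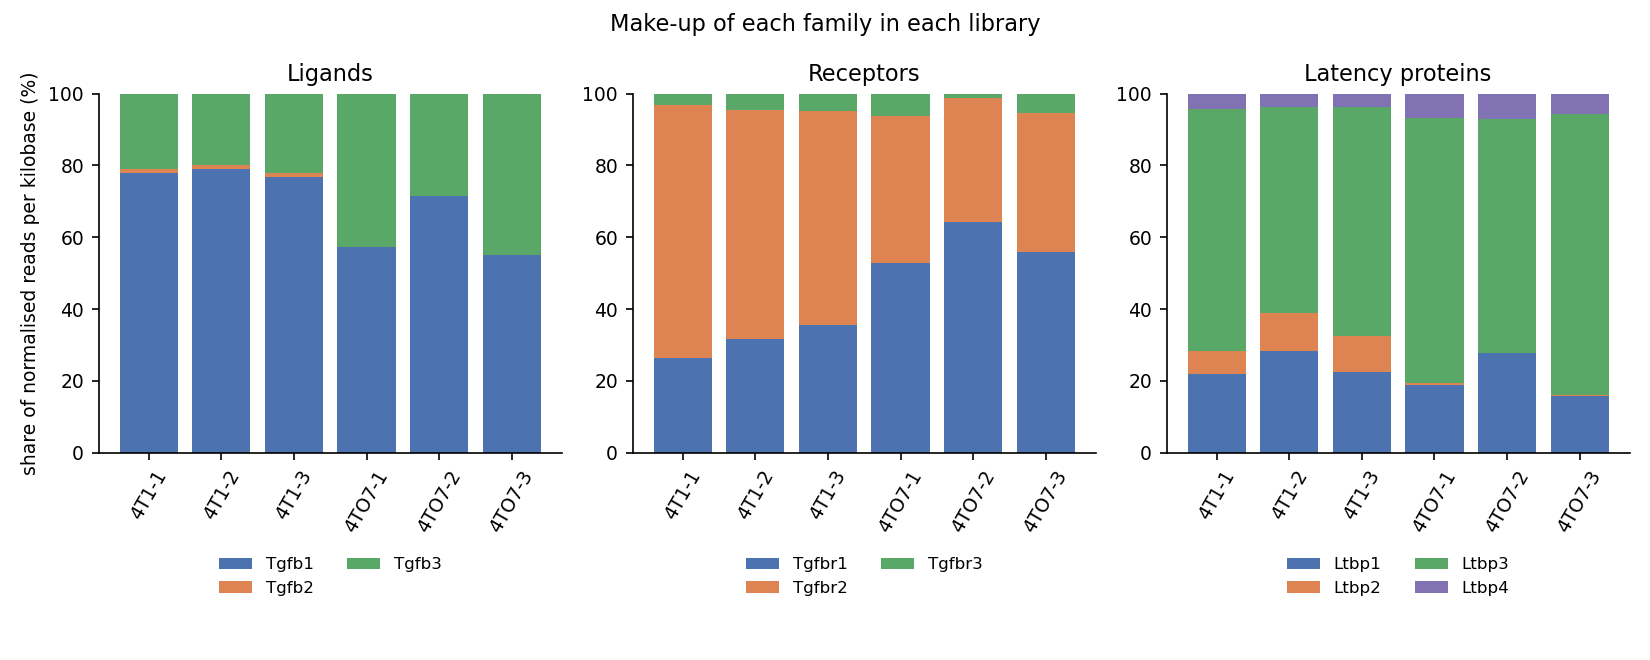
Share (%) of each gene in the summed normalised reads per kilobase of its family, 1 bar per library, for ligands, receptors and latency proteins. Tgfb3 takes 28.4% to 44.9% of the ligands in 4TO7 against 19.8% to 22.3% in 4T1, Tgfbr2 takes 59.5% to 70.4% of the receptors in 4T1 against 34.6% to 40.7% in 4TO7, and Ltbp2 takes 6.32% to 10.5% of the latency proteins in 4T1 against at most 0.630% in 4TO7.

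Among the receptors, the one called was Tgfbr2, the ligand-binding type II kinase (ENSMUSG00000032440, chromosome 9, 116084293 to 116175360). It had 8668, 11743 and 9968 normalised counts in 4T1 and 3108, 2763 and 3528 in 4TO7. The lowest 4T1 library lay far above the highest 4TO7 library, and the replicates of each line stood close together. The log2 fold change was 1.69 ± 0.16 (SE; adjusted p = 6.22e-05), and it lay between 1.58 and 1.79 when any 1 library was left out. Tgfbr1, the type I kinase that carries the signal to SMAD2 and SMAD3 (chromosome 4, 47353222 to 47414931), had 2308, 4167 and 4249 in 4T1 and 2875, 3658 and 3607 in 4TO7. Its ranges overlap, with 4T1 replicate 1 the lowest of all 6, and the log2 fold change was 0.04 (95% interval -0.52 to 0.59; adjusted p = 0.913). Its sign turned with equal totals per library (-0.09) and with quantile normalisation (-0.06), so no direction is given for it.

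Tgfbr3, or betaglycan, a co-receptor without kinase activity (chromosome 5, 107106570 to 107289629), was the most variable receptor. It had 299, 626 and 605 in 4T1 and 364, 67.1 and 364 in 4TO7. The lines overlap through 4T1 replicate 1, and 4TO7 replicate 2 held 0.184 times the mean of the other 4TO7 libraries. The log2 fold change was 1.22 (95% interval -0.23 to 2.67; adjusted p = 0.145), and 0.41 without 4TO7 replicate 2 (adjusted p = 0.293).

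By level per kilobase, the receptor pool held mostly Tgfbr2 in 4T1 and mostly Tgfbr1 in 4TO7. Per kilobase, Tgfbr2 was 64.5% ± 5.49 of the 3 receptors in 4T1 and 38.0% ± 3.16 in 4TO7, and Tgfbr1 31.3% ± 4.67 and 57.7% ± 5.92. The ratio of Tgfbr2 to Tgfbr1 per kilobase was 2.67, 2.00 and 1.67 in the 4T1 libraries and 0.769, 0.537 and 0.696 in the 4TO7 libraries. By this length-corrected measure Tgfbr2 was the more abundant transcript in every 4T1 library and the less abundant in every 4TO7 library. Without length correction that order did not hold in 4TO7 replicate 1, with 3108 normalised counts of Tgfbr2 and 2875 of Tgfbr1. It held in 4TO7 replicates 2 and 3 (2763 against 3658, and 3528 against 3607). The shares of Tgfbr2 and Tgfbr1 each gave exact permutation p = 0.1 (0.143 adjusted over the 10 shares). The share of Tgfbr3 was 4.18% ± 0.841 and 4.26% ± 2.77 (exact permutation p = 1). Summed over the 3 receptors, the level per kilobase was 1956 ± 391 in 4T1 against 1018 ± 93.3 in 4TO7, without overlap (exact permutation p = 0.1).

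Among the latency proteins, Ltbp2 had the largest change of the 10 members. Unlike the other LTBPs it does not bind latent TGF-beta, and it is known as a protein of elastic fibres and microfibrils (ENSMUSG00000002020, chromosome 12, 84783212 to 84876532). It had 2267, 3511 and 3835 normalised counts in 4T1 and 266, 31.4 and 181 in 4TO7. The lines are far apart, and within 4TO7 replicate 2 held 0.141 times the mean of the other libraries. The log2 fold change was 4.75 ± 0.69 (SE; adjusted p = 0.000746), 3.83 without 4TO7 replicate 2 and 5.35 without 4TO7 replicate 1; the ratio of means of 20.1 became 14.3 and 30.1.

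An antisense gene, D030025P21Rik, runs opposite to the 5′ end of Ltbp2 and shares 764 exonic bases with it (chromosome 12, 84875769 to 84879755). It had 179, 194 and 289.6 normalised counts in 4T1 and 11.2, 2.10 and 3.98 in 4TO7, so its lines do not overlap and point the same way as Ltbp2. It was picked for its position and not by the rule for naming genes. No source used here tells whether strand entered the counting, and reads of the shared bases cannot be assigned to either gene with certainty. Its mean in 4T1 was 220.8 normalised counts, beside 3205 for Ltbp2.

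Ltbp4, which is required for elastic fibre assembly in the lung and associates mainly with latent Tgfb1 (ENSMUSG00000040488, chromosome 7, 27305136 to 27337692), was the one member called higher in 4TO7. It had 1252, 989 and 1132 in 4T1 and 2292, 1551 and 2416 in 4TO7. Every 4TO7 library was above every 4T1 library, with replicate 2 again the lowest of its line. The log2 fold change was -0.87 ± 0.20 (SE; adjusted p = 0.00725) and -1.07 without 4TO7 replicate 2.

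Ltbp3, a partner of latent TGF-beta known for its part in bone and tooth development (chromosome 19, 5740904 to 5758532), was the most abundant member per length in both lines. It had 18538, 14721 and 19079 in 4T1 and 23871, 13645 and 31817 in 4TO7, a range in 4TO7 that spans the whole of 4T1. It did not pass (log2 fold change -0.33, 95% interval -0.98 to 0.32; adjusted p = 0.363). Without 4TO7 replicate 2 the log2 fold change was -0.67 and passed (adjusted p = 0.01), a 1.60-fold higher mean in 4TO7. Ltbp1, the classical carrier of latent Tgfb1 (chromosome 17, 75005568 to 75392512), had 7767, 9377 and 8644 in 4T1 and 7789, 7455 and 8266 in 4TO7. Its ranges overlap, and the difference was small and bounded, at a log2 fold change of 0.13 (95% interval -0.16 to 0.42; adjusted p = 0.423), or -0.02 with quantile normalisation.

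Per kilobase, Ltbp3 was 62.9% ± 5.07 of the 4 latency proteins in 4T1 and 72.3% ± 6.65 in 4TO7 (exact permutation p = 0.2), and Ltbp1 24.3% ± 3.58 and 20.7% ± 6.18 (exact permutation p = 0.4). Ltbp2 made up 8.89% ± 2.25 in 4T1 and 0.362% ± 0.258 in 4TO7, and Ltbp4 3.92% ± 0.403 and 6.56% ± 0.744; neither overlapped between lines, and each gave exact permutation p = 0.1 (0.143 adjusted over the 10 shares). The summed level per kilobase was 5332 ± 403 in 4T1 and 6039 ± 1910.2 in 4TO7 (exact permutation p = 0.6).

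**Figure D3:**
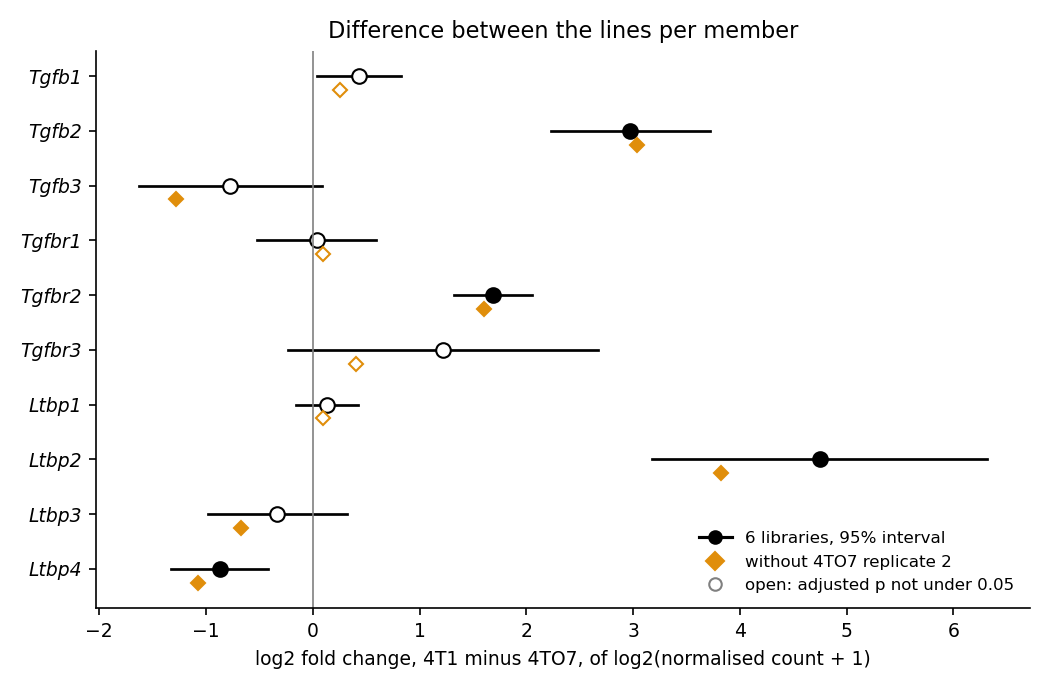
Log2 fold change of each member, 4T1 minus 4TO7 on the log2(normalised count + 1) scale, with its 95% interval over 6 libraries (circles) and its value without 4TO7 replicate 2 (diamonds); filled symbols have adjusted p under 0.05 in limma. Tgfb2, Tgfbr2, Ltbp2 and Ltbp4 are filled both ways, while Tgfb3 and Ltbp3 are filled only as diamonds, at -1.28 and -0.67.

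Ordered by level per kilobase, 4T1 ran from Ltbp3 (3361 ± 458) through Tgfb1 (1493 ± 25.1), Ltbp1 (1289 ± 121), Tgfbr2 (1251 ± 191), Tgfbr1 (621 ± 191), Ltbp2 (473 ± 122), Tgfb3 (404 ± 25.5), Ltbp4 (209 ± 24.4) and Tgfbr3 (83.8 ± 30.1) to Tgfb2. Neighbours whose ranges overlapped in 4T1 were Ltbp1 with Tgfbr2, Tgfbr1 with Ltbp2, and Ltbp2 with Tgfb3. In 4TO7 the order was Ltbp3 (4453 ± 1755), Ltbp1 (1175 ± 61.1), Tgfb1 (1121 ± 229.6), Tgfb3 (768 ± 376), Tgfbr1 (587 ± 76.1), Ltbp4 (387 ± 86.8), Tgfbr2 (387 ± 47.4), Tgfbr3 (43.6 ± 28.2), Ltbp2 (23.6 ± 17.5) and Tgfb2. Here the ranges of Ltbp1, Tgfb1, Tgfb3 and Tgfbr1 overlapped from each to the next, as did those of Ltbp4 with Tgfbr2 and of Tgfbr3 with Ltbp2. Tgfbr2 thus had rank 4 in 4T1 and rank 7 in 4TO7, and Ltbp2 rank 6 and rank 9. These ranks rest on the longest coding transcript of each gene. Joined exons measure 5042 bases for Tgfb1 in place of 2175, but 8187 for Tgfbr2 in place of 8092. Another choice of length can therefore change the order within a line.

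One library stood low in most members. 4TO7 replicate 2 was the lowest 4TO7 library for 8 of 10 members, all except Tgfb2 and Tgfbr1, against 43.5% of all genes tested. It held 0.350 times the mean of the other 4TO7 libraries for Tgfb3, 0.490 for Ltbp3, 0.659 for Ltbp4 and 0.688 for Tgfb1. 4T1 replicate 1 was the lowest 4T1 library for 6 of 10 members, against 35.6% of all genes tested, with 0.485 times the mean of the other 4T1 libraries for Tgfbr3 and 0.549 for Tgfbr1. Without 4TO7 replicate 2, 3 members were called higher in 4T1 and 3 higher in 4TO7, where 29.2% and 27.3% of all genes tested were called, 56.5% in all. The labels record nothing that sets this library apart. In the authors' deposited table, Tgfb2, Tgfb3, Tgfbr2, Ltbp2 and Ltbp4 had an adjusted p under 0.05, where 39.1% of the 19556 genes with an adjusted p did. Its log2 values, 4TO7 over 4T1, were -4.33 for Ltbp2, -3.001 for Tgfb2, -1.69 for Tgfbr2, 0.89 for Ltbp4 and 0.93 for Tgfb3.

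Other genes of the pathway were read from 6 lists of 127 genes, of which 126 were found and 91 passed the filter. Of these 91, 40 were higher in 4T1 (44.0%, against 25.1% of all genes tested) and 22 higher in 4TO7 (24.2%, against 23.9%), with a median log2 fold change of 0.39 against 0.03 over all genes tested. Per list, 30% to 58.3% of the tested genes were higher in 4T1 and 8.33% to 40% higher in 4TO7. The counts per list below stand against the same 25.1% and 23.9% of all genes tested. Because the lists were chosen with earlier results of these data known, an excess here or in a list below is descriptive only. It cannot be read as a property of the pathway. Pmepa1, Itgb6, Skil, Smad7 and a few others stand in more than 1 list.

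The list of latency and activation genes had 10 of 20 tested genes higher in 4T1 and 6 higher in 4TO7 (median log2 fold change 0.39). Itgb6, the subunit of the epithelial integrin alphavbeta6 that activates latent Tgfb1 and Tgfb3, had 105, 162 and 152 normalised counts in 4T1. No 4TO7 library held a read of it, which makes it at least 141-fold higher in 4T1, against 3 reads over the 3 libraries. Itgb8, the partner of Itgav in the other main activating integrin, went the opposite way, at 29.0 ± 0.965 in 4T1 and 117 ± 50.3 in 4TO7 (4.03-fold; adjusted p = 0.00283); it was chosen after its values were seen. Itgav itself was abundant in both lines (9098 ± 3356 and 7199 ± 124; adjusted p = 0.463, and 0.00493 without 4T1 replicate 1). Furin, which cleaves the propeptide from the ligand, was 1.70-fold higher in 4T1 (7194 ± 708 against 4229.6 ± 502; adjusted p = 0.00266).

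Pcsk6, a related convertase, was likewise without a read in 4TO7, and at 309 ± 56.4 in 4T1 it was at least 311-fold higher there. Mmp9, a gelatinase able to release TGF-beta, was 13.5-fold higher in 4T1 (4309.8 ± 1460.4 against 319.7 ± 161). Htra3, a serine protease that binds TGF-beta family proteins, was 50.4-fold higher in 4TO7 (412 ± 213 against 8.17 ± 5.56), and 82.0-fold without 4T1 replicate 3. Lrrc32, which presents latent TGF-beta on regulatory T cells, had 6 reads in 4T1 and 1 in 4TO7 and was not tested.

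Of the 14 listed genes of matrix anchors and related matrix proteins, 8 passed the filter, 4 higher in 4T1 and 3 higher in 4TO7 (median log2 fold change 1.27). Fbn1, the fibrillin on which LTBPs are deposited, was low in both lines, with 17.2, 36.9 and 12.6 normalised counts in 4T1 and 15.9, 6.29 and 10.9 in 4TO7 (adjusted p = 0.156). Fbn2 had 0 reads in all 6 libraries. Fn1, fibronectin, which takes up LTBP1 early in matrix assembly, had 105153 ± 9006 and 35762 ± 14645 (2.94-fold; adjusted p = 0.00269). Fbln2, a fibulin of basement membranes, had 15853 ± 1856 in 4T1 and 6.23 ± 1.14 in 4TO7. Eln, elastin, had 0 reads in 4T1 and 753, 91.2 and 1139 in 4TO7, at least 668-fold higher and at least 426-fold without 4TO7 replicate 3. Its log2 fold change of -8.75 became -9.86 without 4TO7 replicate 2 and -8.04 without replicate 3. Efemp2, a fibulin of elastic fibres, was 1.35-fold higher in 4TO7 (adjusted p = 0.0334), a call that did not survive leaving out 4T1 replicate 2 or 3, or 4TO7 replicate 1 or 3 (adjusted p from 0.0921 to 0.142).

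Co-receptors and membrane regulators had 7 of 12 tested genes higher in 4T1 and 1 (Dab2) higher in 4TO7 (median log2 fold change 0.69). Eng, endoglin, a co-receptor related to Tgfbr3 and best known from endothelium, had 2926, 2752 and 2366 in 4T1 and 63.6, 21.0 and 74.6 in 4TO7, a 50.5-fold difference (adjusted p = 1.45e-05). Endothelial markers other than Eng were near 0 in both lines (above). Nrp1 and Nrp2, neuropilins that can bind TGF-beta, were 6.69-fold and 6.07-fold higher in 4T1.

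Among SMADs and their regulators, 8 of 23 were higher in 4T1, 2 higher in 4TO7 and 13 not called (median log2 fold change 0.12). Smad2 was 1.60-fold higher in 4T1 (2333 ± 101 against 1457 ± 188; adjusted p = 0.00468). Smad3, the other receptor-activated SMAD, had 6943 ± 756 and 7101 ± 1960.1 (adjusted p = 0.992). Smad4, the shared partner, had 4926 ± 715 and 4049.9 ± 43.1 (adjusted p = 0.148, and 0.0266 without 4T1 replicate 1). Smad7, the inhibitory SMAD that the pathway itself induces, had 1508, 1572 and 1556 in 4T1 and 1238, 1027 and 1289.9 in 4TO7, and was just short of a call (log2 fold change 0.39; adjusted p = 0.0516, and 0.0499 in DESeq2).

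Usp11, a deubiquitinase of the receptors, was 17.0-fold higher in 4T1, and Tgif2, a SMAD corepressor, 2.74-fold higher in 4TO7. Skil, a corepressor that the pathway induces, was 2.37-fold higher in 4T1 (adjusted p = 0.0173). It missed the threshold when 4T1 replicate 2 or replicate 3 was left out (adjusted p = 0.0737 and 0.0607).

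Genes listed because TGF-beta is known to induce or repress them went both ways. Of 28 tested genes, 14 were higher in 4T1 (50%, against 25.1% of all genes tested). The 8 higher in 4TO7 were 28.6%, against 23.9% of all genes tested, and the median log2 fold change was 0.48. Pmepa1, an inhibitor of SMAD signalling that TGF-beta induces, was 4.47-fold higher in 4T1 (10216 ± 1005 against 2285 ± 674; adjusted p = 0.000114). Pthlh, the parathyroid hormone-related factor of bone metastasis, was 34.4-fold and Pdgfb, a growth factor for stroma, 16.0-fold higher in 4T1. In contrast, Tgfbi, named for its induction by TGF-beta and chosen here after its values were seen, was 5.37-fold higher in 4TO7 (209 ± 45.6 against 38.9 ± 27.1; adjusted p = 0.0022), and 8.87-fold without 4T1 replicate 3. Of the 40 genes in this list 12 did not pass the filter, among them Acta2, Tagln and Col1a1, which mark the contractile and fibroblastic response.

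Activin-type ligands and receptors, which share SMAD2 and SMAD3, had 3 of 10 tested genes higher in 4T1 and 4 higher in 4TO7 (median log2 fold change 0.28). Inhba, the activin A subunit, had 2587, 2949 and 2878 in 4T1 and 823, 186 and 673 in 4TO7 (5.003-fold; log2 fold change 2.58, adjusted p = 0.00294, and 1.91 without 4TO7 replicate 2). Fstl3, which traps activin, was 3.86-fold higher in 4T1. The activin receptors Acvr1b and Acvr2b went the other way, 2.07-fold and 2.501-fold higher in 4TO7.

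**Figure D4:**
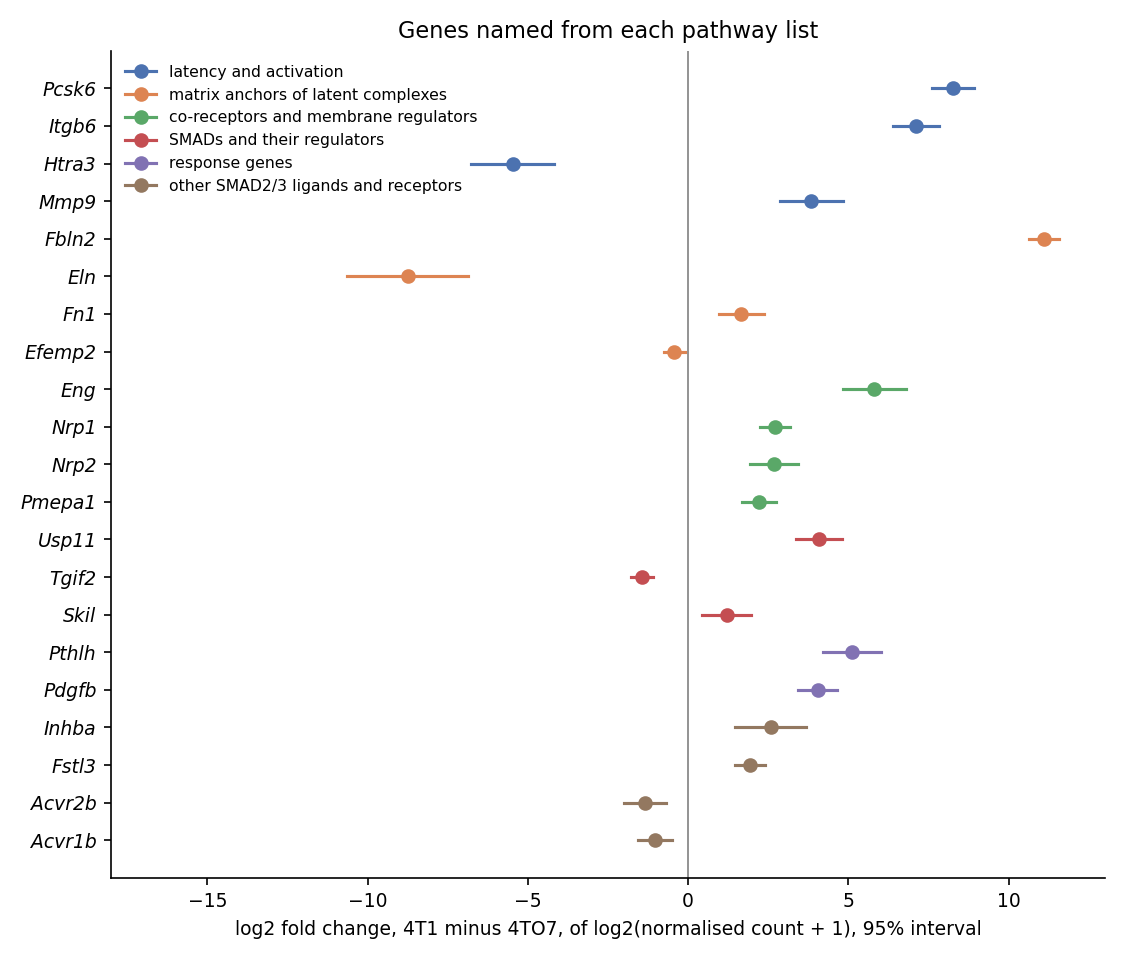
Log2 fold change, 4T1 minus 4TO7 on the log2(normalised count + 1) scale, with 95% intervals over 6 libraries, for the genes taken from the 6 pathway lists (colours) for the size of their difference; genes named in the text for other reasons, such as Smad3, are not drawn. The genes drawn are examples, from Fbln2 at 11.10 to Eln at -8.75; the counts per list are in the text.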

How the data were processed

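RNA of 6 libraries (3 per line) was sequenced. The submitters' processing notes name STAR 2.5, featureCounts 1.5, DESeq2 and the build GRCm38; the annotation release and strand setting are not given in the sources used here. The values the authors deposited are a normalised signal: reads of each gene, scaled by a single size factor for its library, per the file headers and the numbers themselves. It also holds the authors' own log2 fold changes (4TO7 over 4T1), their test score, p-values and adjusted p-values, per the file headers; these are quoted where named.

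Values in a library came in whole steps (100% within 1e-06), so reads were recovered exactly; size factors were 0.954 to 1.07. The main test was limma 3.58.1 in R 4.3.3 on log2(value + 1), with an intensity trend and robust moderation, group alone, two-sided, over genes reaching a value of 10 in 3 or more of the 6 libraries, with Benjamini-Hochberg adjustment over all 14276. Such fold changes understate those of low genes. edgeR 4.0.16 and DESeq2 1.42.0 were run on the recovered reads as alternatives. The scripts were tested on simulated data. For a gene without reads in a line, folds were bounded from below by setting 3 reads for the whole line, which covers counting error only.

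Shares used GENCODE M21 (GRCm38) lengths of the longest coding transcript and exact permutation tests. Whether the replicates were independent cultures is not stated, so p-values reflect variation among these samples only, possibly technical; replicates all differed by more than sampling noise (lowest chi-square per gene 23.9). The members and the lists were chosen with earlier results of these data known. Named pathway genes are up to 4 per list with the largest change among called genes without overlap whose higher line averaged 100 or more, plus Smad2, Smad3, Smad4, Smad7, Fbn1, Itgav, Eng, Furin and Lrrc32; a result that the rule would name is not reported here. Promoter windows are from RefSeq (GRCm38.p6). No protein sequences were used here.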

Additional observations from a re-analysis of the deposited data

How the results depend on the processing

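Alternatives differed in pseudocount, filter, scaling, variance model, tool or libraries. The calls of Tgfb2, Tgfbr2, Ltbp2 and Ltbp4 held under each of them, so 3 members were higher in 4T1 throughout. The number higher in 4TO7 was 1, and 2 with edgeR and TMM, with DESeq2 and with the replicate block, in each case through Tgfb3, which did not pass in edgeR with DESeq2 size factors; leaving out 1 library gave 1 to 3. Whether the replicate numbers pair the samples was not settled. Correlations of same-numbered deviations were -0.01, 0.27 and 0.33, and those of differently numbered ones -0.39 to 0.27. With the replicate block in limma Tgfb3 passed (adjusted p = 0.0456), and 7750 genes were called against 6997. Equal totals per library shifted the median of all genes by -0.13 on the log2 scale and gave 4 SMAD regulators higher in 4TO7 in place of 2; without a low-value filter 2 co-receptor genes were higher in 4TO7 in place of 1, and leaving out 1 library gave 1 to 2.

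Directions turned only in results that were not called. Tgfbr1 was -0.093 with equal totals, -0.056 with quantile normalisation and -0.12 to 0.32 when 1 library was left out. Ltbp1 was -0.017 with quantile normalisation. Smad3, at 0.0028, was -0.13 with equal totals, -0.14 with quantile normalisation, -0.069 with edgeR and TMM, -0.032 with edgeR and DESeq2 size factors, -0.052 with DESeq2, and -0.24 to 0.17 when 1 library was left out. The difference in the Tgfbr3 share, -0.0805 points, was -1.65 to 0.958 points when 1 library was left out. Over the members and named genes, 631 of 662 values under alternatives kept direction and side of the threshold. Efemp2 also lost its call with no filter (adjusted p = 0.0521) and without trend and robust moderation (adjusted p = 0.0618), and Smad7 passed with a filter of 50 (adjusted p = 0.0497). The cause of these changes was not tested. The other shares kept their direction with no length correction, with summed reads, with all exons joined (added after seeing the data) and without each library. Tgfb2 in 4TO7 rests on 42 reads, and its fold was 6.64 to 9.66 when 1 library was left out.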
